A study of Mus musculus with 4 samples.

Results

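The regulators of G protein signalling (RGS) were examined in mouse regulatory T (Treg) cells whose Foxp3 gene had been deleted. Foxp3 encodes the forkhead transcription factor that defines this suppressive CD4+ T cell lineage. The members were the genes Rgs1, Rgs2, Rgs3, Rgs10, Rgs14, Rgs18 and Rgs19, taken by exact gene symbol in the platform annotation, which gave 15 probe sets for 7 genes out of 45037 non-control probe sets. A probe set is a group of short oligonucleotides on the array that together report on a transcript, though some can match several transcripts. The deleted group (2 arrays) held CD4+YFP+Ly5.2+ T cells carrying loxP-flanked Foxp3, labelled Foxp3delta. The wild-type group (2 arrays) held CD4+YFP+Ly5.2+ T cells with a wild type Foxp3 gene, labelled Foxp3+. Cells of both groups had been treated with HR-MMPCreGFP, a construct that delivers Cre recombinase, and were recovered after an adoptive transfer of 6 weeks. YFP reported exposure to Cre in both groups, so wild-type cells had met Cre as well. The labels do not describe the age or number of the animals, or the hosts of the transfer.

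Heterotrimeric G proteins carry signals from chemokine, lipid and hormone receptors, and they stay active for as long as their alpha subunit holds GTP. RGS proteins bind the active alpha subunit and speed up GTP hydrolysis, which ends the signal sooner. In lymphocytes they set how strongly and for how long cells answer chemoattractants, and several of their genes respond quickly to antigen receptor stimulation. Rgs1, Rgs2, Rgs3 and Rgs18 belong to the R4 subfamily, which is built of little more than the RGS domain in most members. Rgs10 and Rgs14 belong to the R12 subfamily, and Rgs19, also called GAIP, to the RZ subfamily. In RefSeq's gene list for the mouse assembly GRCm38.p6, Rgs2, Rgs13, Rgs1, Rgs21 and Rgs18 follow one another along the chromosome with no other protein-coding gene between them.

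The arrays matched their labels. Foxp3 read 8.77 and 8.75 in deleted cells, compared with 11.40 and 11.23 in wild-type cells (log2 intensity), a difference of -2.55 (SE 0.26). Its adjusted p was 0.115 in limma over all probe sets, so even the targeted gene did not pass the threshold of 0.05 in this comparison of 2 arrays against 2. All 6 T cell marker genes were measured above a mean log2 intensity of 4, the limit for testing, and neither of the 2 CD8 marker genes was. Arrays of a group correlated at 0.95 in deleted cells and 0.936 in wild-type cells over the 16281 probe sets tested. Deleted replicate 1 stood apart in some markers of other cells. The summed intensity of 6 myeloid marker genes was 1861 and 620.0 in deleted cells, compared with 636.6 and 518.7 in wild-type cells, and that of 6 platelet and megakaryocyte marker genes was 62.3 and 32.6 in deleted cells, compared with 34.1 and 33.6 in wild-type cells. The myeloid sum came mostly from the brightest probe sets of the genes Csf1r and Lyz2, at 9.85 and 9.69 in deleted replicate 1 (log2). None of the 6 platelet and megakaryocyte genes reached the limit for testing. Only Pf4 among them rose above 3 on any array, reaching 5.10 in deleted replicate 1. Over all probe sets tested, deleted replicate 1 was above deleted replicate 2 by at least 1 (log2) in 8.37%, and below it by at least 1 in 7.34%. Values for the RGS genes are therefore given with and without deleted replicate 1, or deleted replicate 2, where that array decides them.

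No RGS transcript passed the test between deleted and wild-type cells, and the members did not share 1 direction. Of the 15 probe sets, 10 reached the limit for testing and represented 6 genes. The other 5, namely 1 of Rgs2, 2 of Rgs3 and both of Rgs18, lay between 2.26 and 3.63 on every array, near the floor of the measurement, and are given as values only. Among the 10 tested probe sets 5 had a higher mean in deleted cells and 5 a lower mean. Their median difference was -0.045 on the log2 scale, beside 0.0058 over all 16281 probe sets tested. Counted once per gene by the brightest probe set, 2 of the 6 genes had a higher and 4 a lower mean, and the median difference was -0.32, beside -0.018 over all 8629 genes so counted. This median per gene was -0.44 without deleted replicate 1 (all genes -0.055) and -0.018 without deleted replicate 2 (all genes 0.0094). The median size of the difference, without regard to sign, was 0.26 for the RGS probe sets and 0.37 for all probe sets tested.

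At an adjusted p of 0.05 in limma 0 of 10 were called, as were 0 of all probe sets tested (0%), and the lowest adjusted p of an RGS probe set was 0.623. At an unadjusted p of 0.05, 0 of 10 passed, against 9.26% of all probe sets tested. A difference of at least 1 on the log2 scale with no overlap between the groups was found for 1 of 10 RGS probe sets in the lower direction, where 4.58% of all probe sets lay, and for 0 in the higher direction, where 6.66% of all lay. Without deleted replicate 1 the count in the lower direction was 4 of 10, namely Rgs1 and 3 probe sets of Rgs2, where 7.35% of all probe sets lay, and 0 were higher, where 9.99% of all lay. Since 3 of these 4 report on 1 gene and the count turns on 1 array, this is not read as a result about the RGS genes as a group. Without deleted replicate 2 the count was 1 of 10, and it lay in the higher direction. This was Rgs2 1447830_s_at, at a difference of 1.57. The share of all probe sets was not counted for that omission. The labels do not say whether the arrays of a group came from separate animals or preparations, so the p-values rest on the spread between the arrays alone, and that spread may be technical. An exact permutation test of 2 arrays against 2 cannot go below p = 0.333.

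**Figure D1:**
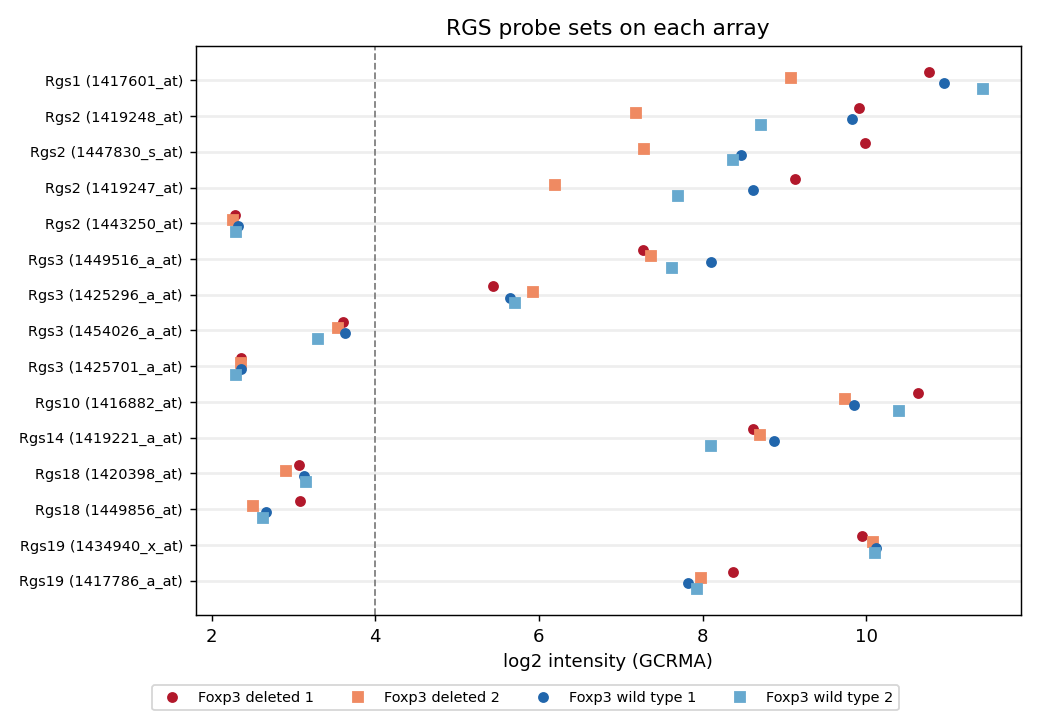
Log2 intensity (GCRMA, horizontal axis) of each of the 15 RGS probe sets on each of the 4 arrays, deleted arrays in red and orange and wild-type arrays in blue; circles are replicate 1, squares replicate 2, and the dashed line marks the mean of 4 needed for testing. The 3 brighter Rgs2 probe sets spread most, with deleted replicate 1 highest and deleted replicate 2 lowest on each, while Rgs18 and 3 further probe sets stay left of the line.

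Rgs1 had the largest difference of the tested members. RGS1 is known to restrain the migration of lymphocytes towards chemokines, and its transcript is induced when lymphocytes are activated. Its probe set 1417601_at read 10.77 and 9.08 in deleted cells, compared with 10.94 and 11.43 in wild-type cells. Both deleted arrays lay below both wild-type arrays, but deleted replicate 1 was only just lower than wild-type replicate 1. The means were 9.92 ± 1.19 in deleted cells and 11.18 ± 0.34 in wild-type cells (log2, SD, n = 2 each). Rgs1 was thus at a difference of -1.26 (SE 0.61), or 2.39-fold lower, with a 95% interval from -2.82 to 0.30 and an adjusted p = 0.623 in limma. The size depended on which deleted array was used, with a difference of -2.10 without deleted replicate 1 and -0.42 without deleted replicate 2. In bulk RNA, fewer cells that express a gene and less RNA per cell cannot be told apart.

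Rgs2 varied more between the arrays of deleted cells than between the groups. RGS2 acts mainly on the Gq class of alpha subunits and, like RGS1, is made from a gene that activated T cells induce. Probe set 1419248_at read 9.90 and 7.18 in deleted cells, compared with 9.83 and 8.71 in wild-type cells. Probe set 1447830_s_at read 9.98 and 7.29 in deleted cells, compared with 8.46 and 8.38 in wild-type cells. Probe set 1419247_at read 9.13 and 6.19 in deleted cells, compared with 8.61 and 7.70 in wild-type cells. On all 3 probe sets deleted replicate 1 was the highest array and deleted replicate 2 the lowest, so that the deleted group spanned the wild-type group.

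The gap between the 2 deleted arrays was 2.72, 2.70 and 2.93 on the log2 scale for these Rgs2 probe sets, between 6.48-fold and 7.65-fold. Gaps at least that wide were seen in 0.313%, 0.338% and 0.154% of all probe sets tested. The Rgs1 gap of 1.69 was matched or exceeded by 2.76% of them. In the wild-type group the Rgs2 gaps were 1.12, 0.086 and 0.91, in the order given above. The last letters of 1447830_s_at mark, in the maker's naming, a probe set that can match several transcripts.

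Because of this spread the group difference of Rgs2 had no settled sign. It was -0.72 (SE 0.98), 0.22 (SE 0.91) and -0.49 (SE 1.03) on the 3 probe sets, with adjusted p of 0.854, 0.963 and 0.916 in limma. The intervals ran from -3.24 to 1.80, from -2.12 to 2.56 and from -3.13 to 2.15, so a change of several fold in either direction would fit within them. Without deleted replicate 1 the differences were -2.09, -1.13 and -1.96, and without deleted replicate 2 they were 0.64, 1.57 and 0.98. The fourth Rgs2 probe set, 1443250_at, lay between 2.26 and 2.32 on every array.

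Of the myeloid markers, Lyz2, Fcer1g and Csf1r were highest in deleted replicate 1, where Rgs2 was highest, and the others were not. Lyz2, the lysozyme gene of macrophages and neutrophils, read 9.69 and 6.30 in deleted cells, compared with 5.65 and 7.24 in wild-type cells. Fcer1g, a signalling chain of Fc receptors, read 6.30 and 4.45 in deleted cells, compared with 4.23 and 4.47 in wild-type cells. Csf1r, the receptor for macrophage colony-stimulating factor, read 9.85 and 8.93 in deleted cells, compared with 9.06 and 8.30 in wild-type cells. Of 6 myeloid marker genes 4 were tested, and all 4 had a higher mean in deleted cells, with adjusted p of at least 0.707 in limma for their brightest probe sets. A further Csf1r probe set, 1419873_s_at, read 6.88 and 5.92 in deleted cells, compared with 5.52 and 4.69 in wild-type cells. Its groups did not overlap (difference 1.30, adjusted p = 0.552 in limma). The remaining Csf1r probe set, 1423593_a_at, stayed below 3 on every array. The level of Csf1r therefore depended on the probe set. Adgre1 read 4.33 and 4.44 in deleted cells, compared with 4.36 and 4.32 in wild-type cells, a difference of only 0.044. Itgam and Cd14 stayed below 3 on every array. Between the wild-type arrays, Lyz2 and Fcer1g were higher in replicate 2, while the brighter Csf1r and Rgs2 probe sets were higher in replicate 1. The part of myeloid cells in the Rgs2 values was not tested.

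**Figure D2:**
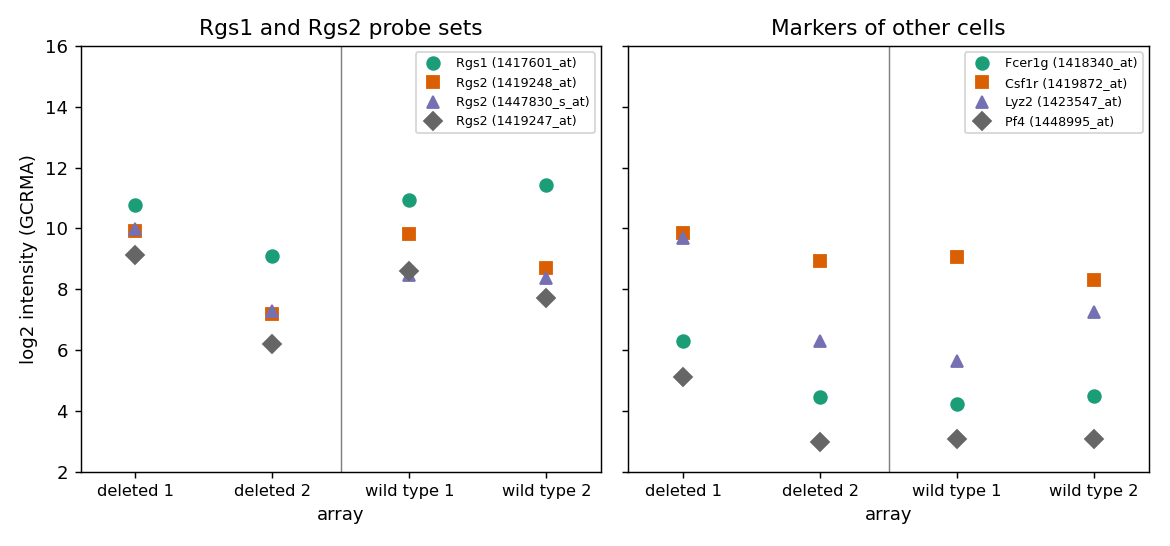
Log2 intensity (GCRMA, vertical axis) on each of the 4 arrays, with deleted arrays left of wild-type arrays, for the Rgs1 probe set and the 3 brighter Rgs2 probe sets (left) and for the myeloid genes Fcer1g, Csf1r and Lyz2 and the platelet gene Pf4 (right). Rgs2 read between 9.13 and 9.98 in deleted replicate 1 and between 6.19 and 7.29 in deleted replicate 2, and Lyz2 read 9.69 and 6.30 on the same arrays. In wild-type replicates 1 and 2 Lyz2 read 5.65 and 7.24, while each of these Rgs2 probe sets was higher in replicate 1.

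Rgs3 was steadier. RGS3 acts on the Gi and Gq classes, and its gene gives rise to long and short isoforms, which its 4 probe sets may not report equally. The brightest, 1449516_a_at, read 7.27 and 7.36 in deleted cells, compared with 8.10 and 7.63 in wild-type cells. The groups did not overlap, and the difference was -0.55 (SE 0.37), with a 95% interval from -1.49 to 0.39 and an adjusted p = 0.713 in limma. Probe set 1425296_a_at read 5.44 and 5.93 in deleted cells, compared with 5.65 and 5.71 in wild-type cells. There the wild-type arrays lay inside the range of the deleted arrays, and the difference was 0.0058 (SE 0.37, adjusted p = 0.999 in limma). Its sign turned to -0.014 with quantile normalization and to -0.0062 with median centring. The remaining Rgs3 probe sets were near the floor, at 3.60 and 3.55 in deleted cells, compared with 3.63 and 3.30 in wild-type cells for 1454026_a_at, and between 2.29 and 2.36 for 1425701_a_at.

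Rgs18 was near the floor in both groups. RGS18 is best known from platelets and megakaryocytes, where it limits the response to platelet agonists. Probe set 1420398_at read 3.07 and 2.91 in deleted cells, compared with 3.13 and 3.16 in wild-type cells. Probe set 1449856_at read 3.08 and 2.50 in deleted cells, compared with 2.66 and 2.63 in wild-type cells. On the second of these deleted replicate 1 was the highest array, while on the first it lay below both wild-type arrays. Deleted replicate 1 was also the highest for the platelet chemokine gene Pf4, at 5.10 and 2.99 in deleted cells, compared with 3.06 and 3.09 in wild-type cells. The part of platelets in the Rgs18 values was not tested. Other platelet genes, among them Itga2b and Gp9, stayed below 3 on every array. The arrays thus gave no usable level for Rgs18, and no difference was tested.

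The R12 genes Rgs10 and Rgs14 were both well above the floor, and neither passed the test. RGS10 is a short protein that acts on the Gi class and is abundant in immune cells. Rgs10 read 10.63 and 9.74 in deleted cells, compared with 9.85 and 10.40 in wild-type cells. The groups overlapped, with the highest and the lowest array both in the deleted group, and the difference was 0.061 (SE 0.42, 95% interval -1.01 to 1.13, adjusted p = 0.98 in limma). Its sign changed when single arrays were left out, with -0.38 without deleted replicate 1 and 0.50 without deleted replicate 2.

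RGS14 carries, besides its RGS domain, a domain that binds Ras-like GTPases and a GoLoco motif that holds Gi alpha subunits in their GDP form. Rgs14 read 8.61 and 8.70 in deleted cells, compared with 8.87 and 8.11 in wild-type cells. Both deleted arrays lay between the 2 wild-type arrays. The difference was 0.17 (SE 0.39, 95% interval -0.84 to 1.18, adjusted p = 0.925 in limma), and without wild-type replicate 2 it was -0.21.

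Rgs19, on its brighter probe set, had the smallest standard error among the tested RGS probe sets. RGS19 binds Gi alpha subunits and is found on membranes of the trafficking pathway. Probe set 1434940_x_at read 9.95 and 10.08 in deleted cells, compared with 10.12 and 10.11 in wild-type cells. All 4 values were close together, and the difference was -0.096 (SE 0.26), with a 95% interval from -0.77 to 0.58 and an adjusted p = 0.939 in limma. Probe set 1417786_a_at read 8.37 and 7.98 in deleted cells, compared with 7.82 and 7.93 in wild-type cells. Here both deleted arrays were the higher ones, though deleted replicate 2 only just, and the difference was 0.30 (SE 0.35, 95% interval -0.59 to 1.20, adjusted p = 0.825 in limma). The probe sets of Rgs19 therefore disagreed in sign, at differences that are small beside their errors. The maker's naming marks 1434940_x_at as a probe set that can cross-hybridise.

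**Figure D3:**
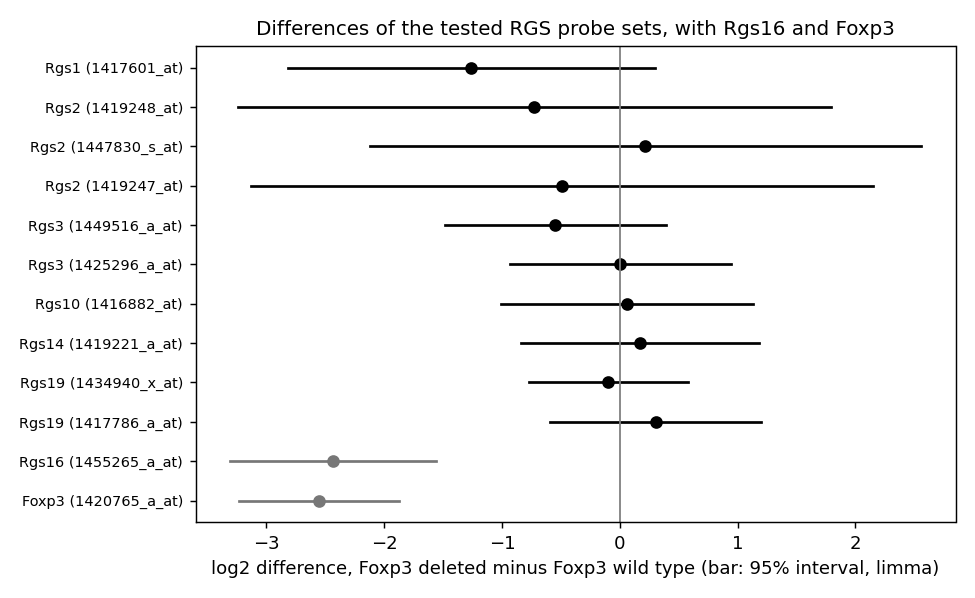
Log2 difference (deleted minus wild type, horizontal axis) of the 10 tested RGS probe sets in black and of Rgs16 and Foxp3 in grey, with the 95% interval of limma as a bar. Each black bar crosses 0, the Rgs2 bars are the widest, and the grey points lie at -2.44 for Rgs16 and -2.55 for Foxp3.

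Other genes with an RGS or RGS-like domain included a larger difference than any of the members. Rgs16, a further R4 gene that is induced in activated T cells, read 6.91 and 6.60 in deleted cells, compared with 9.19 and 9.19 in wild-type cells. Its groups lay far apart, with means of 6.76 ± 0.22 in deleted cells and 9.1929 ± 0.0004 in wild-type cells (log2, SD, n = 2 each). The difference was -2.44 (SE 0.34, 95% interval -3.31 to -1.56), or 5.41-fold lower, with an unadjusted p of 0.000826 and an adjusted p = 0.164 in limma. It stayed between -2.59 and -2.28 when any array was left out. With all 4 arrays, its adjusted p in limma ran from 0.0849 under the stricter filter to 0.447 with the replicate number as a block. Of 2 more Rgs16 probe sets below the limit for testing, 1426037_a_at read 3.26 and 3.17 in deleted cells, compared with 3.55 and 5.45 in wild-type cells, and 1451452_a_at stayed below 2.3 on every array. Whether the change of Rgs16 differs from that of Rgs1 or Rgs2 was not tested.

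Of the 16 genes of this list that were measured, 5 were tested, and 4 of them had a lower mean in deleted cells. None was called at an adjusted p of 0.05, 2 passed an unadjusted p of 0.05, where 9.53% of all 8629 genes by their brightest probe set lay, and the median difference was -0.58, beside -0.018 over all 8629 genes by their brightest probe set. Differences of at least 1 without overlap were found for 2 genes, both lower, against 4.93% of all genes in the lower direction and 5.57% in the higher direction. The second was Snx13, a sorting nexin with an RGS-like domain, at 6.03 and 5.84 in deleted cells, compared with 7.45 and 7.85 in wild-type cells. Its difference was -1.71 (SE 0.37, adjusted p = 0.303 in limma), and its other tested probe set gave -1.40. Axin2, a scaffold of the Wnt pathway whose RGS-like domain does not serve G proteins, was at 0.70 (SE 0.45, adjusted p = 0.702 in limma). The neighbours Rgs13 and Rgs8 were not above the limit for testing.

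The promoters of Rgs2, the member with the widest spread between arrays, and of Rgs16, the RGS gene with the largest difference, are shown as the 250 bases before the annotated start site, from RefSeq on GRCm38.p6. Capitals mark a core of the cAMP response element (TGACGT on either strand), the kind of site bound by factors that cAMP activates. The forkhead core TGTTTAC, on either strand, was also searched because Foxp3 is a forkhead factor.
Rgs2, chr1:144004150-144004399, minus strand: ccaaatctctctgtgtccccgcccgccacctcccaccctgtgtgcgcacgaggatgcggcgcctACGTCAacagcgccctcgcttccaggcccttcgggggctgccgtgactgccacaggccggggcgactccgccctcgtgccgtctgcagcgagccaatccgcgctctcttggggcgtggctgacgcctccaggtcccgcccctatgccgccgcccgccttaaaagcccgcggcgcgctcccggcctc
Rgs16, chr1:153740103-153740352, plus strand: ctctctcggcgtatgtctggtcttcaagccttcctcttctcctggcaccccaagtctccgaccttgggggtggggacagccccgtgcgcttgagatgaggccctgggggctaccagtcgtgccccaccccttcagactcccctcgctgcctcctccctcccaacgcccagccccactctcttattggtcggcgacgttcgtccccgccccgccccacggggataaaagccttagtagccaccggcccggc
The Rgs2 window held TGACGT once, beginning 186 bases before the start site, and the Rgs16 window did not hold it. Neither window held TGTTTAC. Of the members, 4 genes had 7 windows in the table, of which 1 held TGACGT and 0 held TGTTTAC, while 6.47% and 3.17% of all 32851 windows of this length held these letters. The Rgs2 window was 72.4% G and C and the Rgs16 window 66.4%, beside a median of 52.4%. These matches describe the letters only and say nothing of binding, and the motifs were chosen after the array values were seen.

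The patterns closest to those of the members were taken from the distance between log2 values centred on their own mean over the 4 arrays. For Rgs1 the closest probe sets of other genes were those of Zfp119b (distance 0.19), Hopx (0.24) and Cd69 (0.26). Cd69, an early activation marker of lymphocytes, read 8.79 and 7.15 in deleted cells, compared with 8.73 and 9.20 in wild-type cells. Hopx, a homeodomain-only protein gene, read 9.62 and 8.16 in deleted cells, compared with 9.68 and 10.32 in wild-type cells. In each of these, as for Rgs1, deleted replicate 2 was the lowest array and wild-type replicate 2 the highest. For the Rgs19 probe set 1417786_a_at, the closest were Erp29 (0.039), Stk39 (0.044) and Sec16a (0.051). With 4 arrays, such likeness is a description only.

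The alpha subunits on which RGS proteins act were measured beside them. Of 13 genes 6 were tested by their brightest probe set, with 4 higher and 2 lower means, a median difference of 0.31 and no call at an adjusted p of 0.05 in limma (3 at an unadjusted p of 0.05, beside the 9.53% of all genes). Gnaq, which encodes the Gq alpha subunit that RGS2 acts on, read 6.34 and 6.76 in deleted cells, compared with 8.03 and 8.40 in wild-type cells. Its difference was -1.66 (SE 0.38, adjusted p = 0.322 in limma), but its 4 tested probe sets ranged from -1.66 to 0.63. Gna13, a further alpha subunit gene, read 11.05 and 11.82 in deleted cells, compared with 10.02 and 9.998 in wild-type cells. Its difference was 1.43 (SE 0.34, adjusted p = 0.332 in limma), and its 6 tested probe sets were all above 0, from 0.30 to 2.69. Gnas, the Gs alpha subunit, was at 0.64 (SE 0.24, adjusted p = 0.522 in limma). Gnai2, the main Gi alpha subunit of lymphocytes, was at -0.039 on its brightest probe set and 0.26 on its other tested one.

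Of 15 beta and gamma subunit genes 6 were tested, 3 with higher and 3 with lower means (median difference -0.24). None passed (lowest adjusted p = 0.484 in limma), and 2 were at an unadjusted p of 0.05, beside 9.53% of all genes. Gng2 was at 0.88 (SE 0.34), and its 3 tested probe sets lay between 0.88 and 1.08. Gng12 was at -1.35 (SE 0.61), with a mean below 4 in deleted cells. Gnb1 was at -0.83 (SE 0.28) on its brightest probe set and at 0.96 on its other tested probe set, so that its direction depends on the probe set.

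Receptors that feed these G proteins were measured as well. Of 23 genes for Gi-coupled chemoattractant and lipid receptors 17 were tested, 11 with higher and 6 with lower means (median 0.42). The lowest adjusted p was 0.202 in limma, and 8 of the 17 were at an unadjusted p of 0.05, beside 9.53% of all genes. At least 1 apart without overlap were 4 of the 17 genes in the higher direction, beside 5.57% of all genes, and 2 in the lower direction, beside 4.93%. Cxcr6, the receptor for CXCL16, read 11.16 and 9.15 in deleted cells, compared with 7.15 and 7.31 in wild-type cells, a difference of 2.93 (SE 0.71) that was 1.92 without deleted replicate 1. S1pr1, the receptor for sphingosine 1-phosphate that guides egress from lymphoid tissue, was at 1.89 (SE 0.32) and Ccr1 at -1.68 (SE 0.50). Of 6 genes for Gs-coupled receptors 4 were tested, 1 higher and 3 lower (median -0.98). Their lowest adjusted p was 0.297 in limma, and all 4 were at an unadjusted p of 0.05, beside 9.53% of all genes. Vipr1, a receptor for vasoactive intestinal peptide, was at 1.55 (SE 0.33), the prostacyclin receptor gene Ptgir at -1.20 (SE 0.30) and the prostaglandin E receptor gene Ptger4 at -0.98 (SE 0.31). S1pr1 and Vipr1 in wild-type cells and Ptgir in deleted cells had means below 4, so the sizes of these differences depend on the floor.

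Receptor kinases and arrestins, which switch off receptors where RGS proteins switch off G proteins, had 4 tested genes of 6, all with a higher mean in deleted cells. Their median difference was 0.49, and by their brightest probe sets 0 passed an adjusted or an unadjusted p of 0.05 in limma. Arrb2, an arrestin gene, was at 0.83 (SE 0.40) on its brightest probe set and at 1.38 on its other tested one, which had an unadjusted p of 0.0204 and an adjusted p of 0.427. Arrb1 was at 0.57 (SE 0.45) and the kinase gene Grk3 at 0.41 (SE 0.37). GoLoco and exchange regulators of alpha subunits had 5 tested genes of 7, with 2 higher and 3 lower means and 0 past an adjusted or an unadjusted p of 0.05. Gpsm2 was at 0.99 (SE 0.95), Gpsm3 at 0.69 (SE 0.29) and Gpsm1 at -0.50 (SE 0.37).

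Among effectors of G proteins, 10 of 20 genes were tested, 7 with higher and 3 with lower means (median 0.29). The lowest adjusted p was 0.224 in limma, and 3 of the 10 were at an unadjusted p of 0.05, beside 9.53% of all genes. Plcb3, a phospholipase C that Gq activates, read 3.95 and 2.96 in deleted cells, compared with 6.03 and 5.76 in wild-type cells, a difference of -2.44 (SE 0.44). Its level in deleted cells was below 4, near the floor, so this difference depends on the floor. Pik3cg and Pik3r5, the catalytic and regulatory subunits of the phosphoinositide 3-kinase that G proteins activate, were at 1.94 (SE 0.46) and 1.09 (SE 0.41). The other tested Pik3cg probe set was at 0.50.

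**Figure D4:**
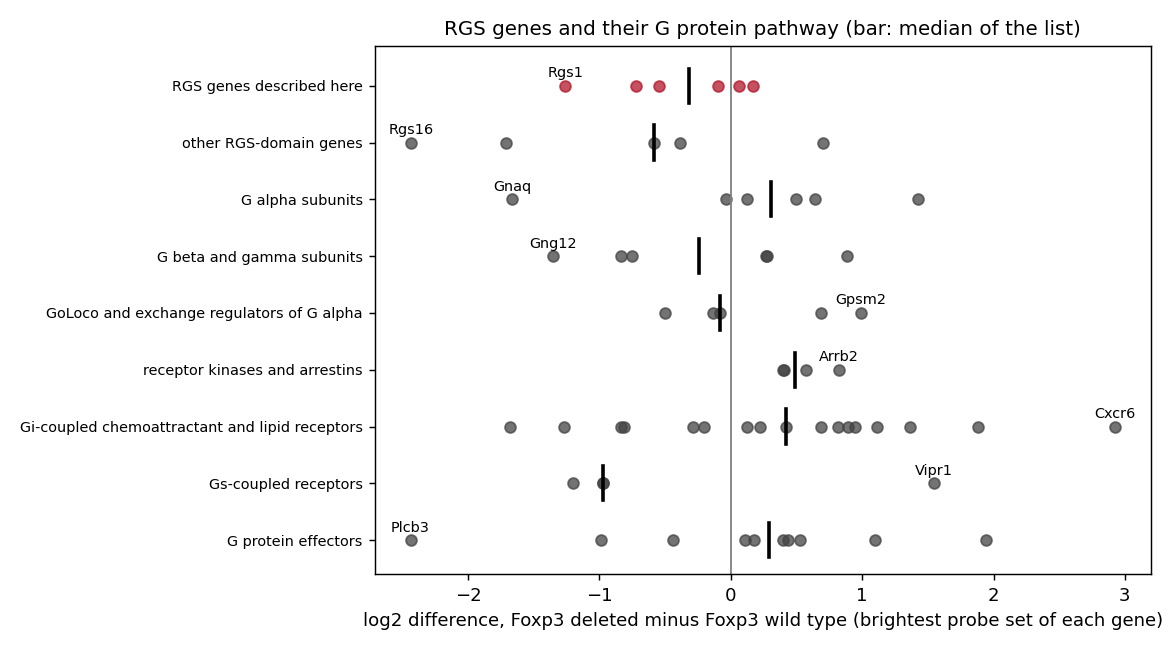
Log2 difference (deleted minus wild type, horizontal axis) of every tested gene by its brightest probe set, for the 6 tested RGS genes in red and for 8 lists of the G protein pathway in grey; the vertical bar is the median of a list and the named gene has its largest difference. The red points lie between -1.26 (Rgs1) and 0.17 (Rgs14), while single genes of the other lists lie as far out as -2.44 (Rgs16 and Plcb3) and 2.93 (Cxcr6).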

How the data were processed

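The files hold RNA profiles of 4 single-colour oligonucleotide arrays, 2 per group, 1 per sample. Qiagen RNeasy was used for total RNA and the Ambion Message Amp II kit for labelling with biotin, per the labels. The authors deposited linear intensities. The submitters' processing notes name GCRMA 1.1.3 as the tool that made them. GCRMA removes a background that depends on probe sequence, normalizes arrays to one another and summarises probes, so that dim probe sets sit close to a floor where differences shrink. Its settings and the array batches were not given in the sources used here. Per array, the median intensity was 8.38 to 8.94.

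Intensities were converted to log2 without a pseudocount. After 64 control probe sets were left out, the 16281 probe sets whose mean log2 value reached 4 were fitted with limma 3.58.1 in R 4.3.3 (lmFit, eBayes with a trend on intensity, 2 residual and 2.98 prior degrees of freedom). Tests were two-sided, and p was adjusted over all these probe sets by Benjamini-Hochberg. Pathway lists used the brightest probe set of each of 8629 genes. Genes named from a list are the up to 3 with the largest difference, or those past the threshold. Gnai2, Rgs13, Rgs8, Rgs9, further probe sets of named genes and single markers were named outside that rule, after their values were seen. The fit was also run on simulated arrays with known differences, as a check of the code and not of the RGS results. The members and lists were chosen with earlier results of these data known. Gene symbols come from the platform annotation, and 0 symbols changed on matching to GRCm38.p6. Probe sequences and positions were not used here. Python 3.11.15 with pandas 2.3.3 made the tables and matplotlib 3.10.9 the plots. Alternatives covered the filter, the choice of probe set, the floor, normalization, the trend, the replicate block and leaving out each array.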

Additional observations from a re-analysis of the deposited data

How the results depend on the processing

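Under the 12 alternatives, 105 of 115 differences of single RGS probe sets kept their sign and stayed short of the threshold, with adjusted p of at least 0.514, and 10 changed sign. Those 10 belonged to small or widely spread differences. Rgs3 1425296_a_at turned to -0.014 with quantile normalization and -0.0062 with median centring. When each array was left out in turn the difference ranged from -0.24 to 0.25 for that probe set, from -0.38 to 0.50 for Rgs10, from -0.21 to 0.55 for Rgs14, and from -2.09 to 0.64, -1.13 to 1.57 and -1.96 to 0.98 for Rgs2 1419248_at, 1447830_s_at and 1419247_at. Rgs1 ranged from -2.10 to -0.42, and its adjusted p over the alternatives from 0.555 to 0.89. Over the same omissions the median difference of the tested RGS probe sets ranged from -0.44 to 0.31. Those at least 1 apart without overlap were 1 to 4. The 4 were Rgs1 and the 3 Rgs2 probe sets, all lower, without deleted replicate 1, where 7.35% of all probe sets were so lower. Without deleted replicate 2 it was Rgs2 1447830_s_at alone, and it was higher. Among all probe sets, 20 of 10024 passed an adjusted p of 0.05 in limma with the stricter filter (mean log2 of at least 6). Fewer were tested there, and none of the 20 was an RGS member. With the replicate number as a block 0 RGS probe sets and 0 of all passed, with 1092 of all at an unadjusted p of 0.05, against 1507 without the block. Same-numbered arrays did not deviate together (correlation -0.243), and the labels do not tie them, so the number is not taken as a pairing. The 2 arrays per group limit every value.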

Other observations

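Further markers of other lymphocytes and platelets were unevenly spread over the arrays. Klrk1, which encodes the activating receptor NKG2D of natural killer and cytotoxic T cells, read 5.14 and 2.57 in deleted cells, compared with 2.59 and 2.57 in wild-type cells, so that deleted replicate 1 alone was above the floor. Ppbp, a platelet chemokine gene, read 2.99 and 2.29 in deleted cells, compared with 2.35 and 2.34 in wild-type cells. Nkg7, a granule protein gene of cytotoxic cells, read 11.22 and 10.23 in deleted cells, compared with 8.64 and 8.80 in wild-type cells, a difference of 2.005 (SE 0.42, adjusted p = 0.291 in limma). Ncr1, which marks natural killer cells, stayed below 3 on every array. Cd79b, a chain of the B cell receptor complex, read 4.04 and 4.94 in deleted cells, compared with 6.58 and 6.49 in wild-type cells, while Cd79a and Pax5 stayed below 3. Of 2 erythroid genes, Hba-a1 stayed below 2 and Alas2 differed by 0.083.

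Rgs9, an RGS gene best known from photoreceptors and striatal neurons, lay just under the limit for testing on 1418691_at, at 3.79 and 3.07 in deleted cells, compared with 4.53 and 3.84 in wild-type cells. Its remaining probe sets stayed below 3 on every array.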
